A study of Drosophila melanogaster with 2 samples.

Results

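Among the peaks of Scr-eGFP on the Drosophila melanogaster genome, 350 had their summit in intergenic sequence away from promoters, which is 6.12% of the 5720 summits on the chromosome arms. A summit is the position of highest signal that the authors give for a peak. It was taken here as intergenic when it lay more than 500 bp from every annotated transcription start site (TSS) of a protein-coding gene and inside no annotated gene body, coding or non-coding, with transposable elements not counted as genes. Of the other summits, 4582 lay within 500 bp of a protein-coding TSS, called promoter summits here, and 788 lay inside genes away from such a TSS. The data are chromatin immunoprecipitation sequencing of whole embryos aged 0 to 24 h, in 2 biological replicates of 1 group. The flies carry a transgene that makes the Hox protein Sex combs reduced (Scr) joined to eGFP, and the labels give GFP as the target of the pull-down although their antibody field names Scr. No embryos without the fusion protein form a group here, no tissue was separated, and an age range of this width mixes all of embryonic development, so a summit cannot be placed in a cell type or stage. The peaks were called on the alignments of both replicates together with control alignments, per the submitters' file notes, and only the peak lists were used here.

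Intergenic DNA of the fly holds enhancers, insulators and the promoters of non-coding genes, which act on protein-coding genes at a distance or make RNAs of their own. Hox proteins bind short AT-rich DNA through their homeodomain, often beside the cofactors Extradenticle (Exd) and Homothorax (Hth), and Scr is known for its part in the labial and first thoracic segments and in the salivary gland. The proteins DREF and BEAF-32 bind sites built around the letters CGATA and are known from the promoters of broadly expressed genes and from the borders of chromatin domains, and tRNA genes carry an internal promoter element named the B box.

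The DNA at the 6 strongest intergenic summits is shown first, because 4 of them hold the same 9 bases within 50 bp of the summit. Each line gives the summit base and 50 bp on each side of it from release 6 (dm6) of the genome, named by the nearest protein-coding gene on each side. Capitals mark CGTGACACG on either strand and TATCGATA, the site of DREF.
CG5254 to CG5273, chrX:758933-759033, plus strand: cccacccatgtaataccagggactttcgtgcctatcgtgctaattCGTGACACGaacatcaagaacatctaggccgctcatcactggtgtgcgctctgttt
Ptp4E to CG15468, chrX:4956078-4956178, plus strand: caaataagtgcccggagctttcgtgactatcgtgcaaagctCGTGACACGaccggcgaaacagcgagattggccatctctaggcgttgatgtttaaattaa
stnB to FucTC, chrX:23007614-23007714, plus strand: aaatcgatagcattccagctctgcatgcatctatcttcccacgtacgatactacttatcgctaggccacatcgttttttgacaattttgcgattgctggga
myo to ey, chr4:696885-696985, plus strand: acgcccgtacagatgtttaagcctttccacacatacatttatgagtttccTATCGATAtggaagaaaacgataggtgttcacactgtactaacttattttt
inc to Mur2B, chrX:1517657-1517757, plus strand: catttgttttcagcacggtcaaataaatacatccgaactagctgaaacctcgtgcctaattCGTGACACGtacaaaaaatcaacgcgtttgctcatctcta
RpLP0 to Sfp79B, chr3L:22078217-22078317, plus strand: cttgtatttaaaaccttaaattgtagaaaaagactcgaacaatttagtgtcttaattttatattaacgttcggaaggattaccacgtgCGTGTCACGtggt
The summits by CG5254, by Ptp4E, by inc and by RpLP0 hold the 9 bases, the summit between myo and ey holds the DREF site, and the summit by stnB holds neither.

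Further summit windows are shown for the short sites counted at these summits. In the first pair capitals mark TATCGATA, the DREF site. In the second pair they mark GGTTCGA, the B box core, beside a tRNA gene. In the third group they mark CTATCAGA, letters held by summits in copies of the transposable element INE-1 and, between CG17493 and Slmap, by a summit outside any annotated element. The windows of the Hox interval between Dfd and Scr close the list and hold none of these.
p130CAS to CG7049, chr3L:174659-174759, plus strand: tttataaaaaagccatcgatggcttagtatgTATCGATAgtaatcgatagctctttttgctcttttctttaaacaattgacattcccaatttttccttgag
CG13970 to CG10651, chr2L:20120544-20120644, plus strand: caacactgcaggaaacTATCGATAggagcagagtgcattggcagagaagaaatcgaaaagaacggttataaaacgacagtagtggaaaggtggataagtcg
Arl8 to grn, chr3R:8140919-8141019, minus strand: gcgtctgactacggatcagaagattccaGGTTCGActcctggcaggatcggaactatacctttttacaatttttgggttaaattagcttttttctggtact
Ste12DOR to Ste:CG33247, chrX:14014862-14014962, plus strand: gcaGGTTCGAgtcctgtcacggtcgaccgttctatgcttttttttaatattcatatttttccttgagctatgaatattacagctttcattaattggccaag
CG8565 to ArgRS, chrX:15841538-15841638, minus strand: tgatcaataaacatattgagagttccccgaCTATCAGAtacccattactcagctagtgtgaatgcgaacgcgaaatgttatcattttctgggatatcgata
CG17493 to Slmap, chr2L:22569685-22569785, plus strand: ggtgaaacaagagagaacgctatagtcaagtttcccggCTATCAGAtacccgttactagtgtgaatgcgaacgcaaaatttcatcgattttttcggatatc
CG43774 to ed, chr2L:4030646-4030746, minus strand: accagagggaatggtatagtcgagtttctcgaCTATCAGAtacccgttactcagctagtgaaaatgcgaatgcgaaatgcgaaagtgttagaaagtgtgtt
Dfd to Scr, chr3R:6816335-6816435, plus strand: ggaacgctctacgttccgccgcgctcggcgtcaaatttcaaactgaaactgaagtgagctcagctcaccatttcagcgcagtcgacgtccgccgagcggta
Dfd to Scr, chr3R:6819086-6819186, plus strand: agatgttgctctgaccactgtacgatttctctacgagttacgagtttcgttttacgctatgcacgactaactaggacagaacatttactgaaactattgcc

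The intergenic summits lay close to genes far more often than the sequence open to them. The rule left 39.4 Mb of the arms open, and it was split into tiers, in the order given, with each summit and each base counted in the first tier it met. Within 500 bp of the start of a non-coding gene lay 60 summits (17.1%, Wilson 95% interval 13.6 to 21.4%), against 2.14% of the open bases. Within 500 bp of the 3′ end of a protein-coding gene lay 73 (20.9%, 16.9 to 25.4%), against 4.51% of the bases. At over 500 and up to 1000 bp from a protein-coding TSS lay 48 (13.7%, 10.5 to 17.7%), against 3.93% of the bases. These tiers held 70.9, 41.0 and 30.9 summits per open Mb. The next, at over 1000 and up to 5000 bp from a TSS, held 97 summits (27.7%, 23.3 to 32.6%) in 24.5% of the bases, or 10.04 per Mb. Beyond 5000 bp lay 72 summits (20.6%, 16.7 to 25.1%) in 64.9% of the bases, or 2.81 per Mb. The open bases included 2.38 Mb of the Y, which held no summit, and 10.5% of them lay in annotated transposable elements. In how much of the open sequence reads could be placed is unknown, and the part of this in the densities was not tested. The median distance to the nearest protein-coding TSS was 2532 bp, with an interquartile range of 1075 to 6027 bp. The tiers were drawn after the data had been seen. Summits are not replicates, so the intervals given here cover counting error within 1 list and no test is given.

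**Figure D1:**
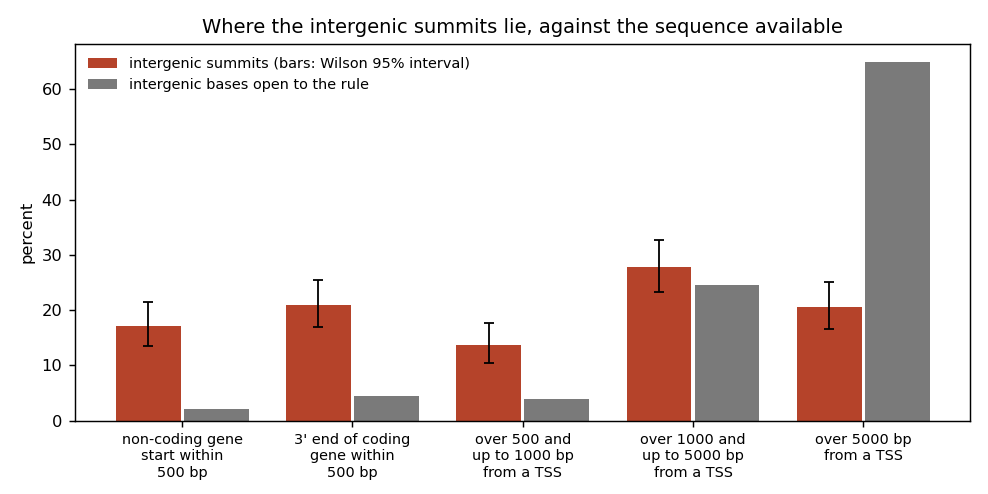
Percent of the 350 intergenic summits (red, with Wilson 95% intervals) and of the intergenic bases open to the rule (grey) in 5 tiers of position, each summit and base counted in the first tier it meets from left to right. The first 3 tiers hold 17.1%, 20.9% and 13.7% of the summits in 2.14%, 4.51% and 3.93% of the bases, and the last holds 20.6% of the summits in 64.9% of the bases.

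The signal, the authors' own value per peak whose scale no label or header states, had a median of 106 at intergenic summits (interquartile range 77.2 to 167). It was 156 at promoter summits (90.2 to 419) and 92.6 at summits inside genes (71.2 to 147). The median log2 signal at intergenic summits was 0.55 below that at promoters (difference -0.55) and 0.20 above that inside genes. Intergenic values ran from 2.67 to 1258, while the highest promoter value was 3461. Among the tiers the median was 144 by non-coding gene starts (order-statistic 95% interval 116 to 188), 130 by 3′ ends (108 to 168) and 97.1 at over 500 and up to 1000 bp from a TSS (84.8 to 116). It was 94.7 at over 1000 and up to 5000 bp (82.3 to 105) and 87.8 beyond 5000 bp (79.6 to 107). The intervals of the first 2 tiers lie above those of the last 2, while neighbouring tiers overlap.

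**Figure D2:**
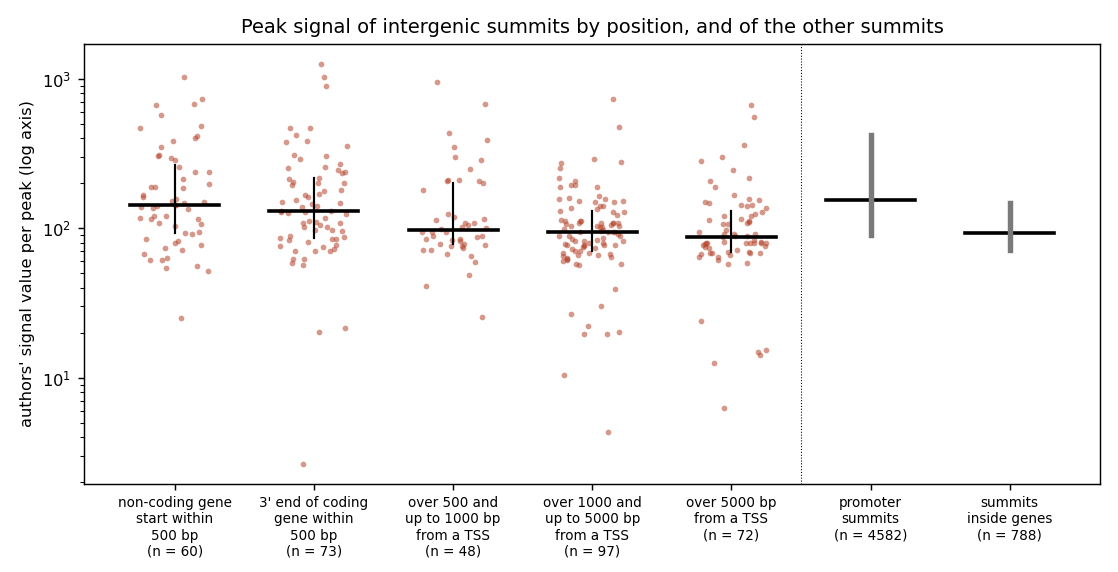
Signal per peak (log axis) of each intergenic summit (red points) in 5 tiers of position, with the median (black bar) and interquartile range (thin line), and, right of the dotted line, the median and interquartile range of promoter summits and of summits inside genes. Medians run from 144 by non-coding gene starts to 87.8 beyond 5000 bp, against 156 at promoters and 92.6 inside genes.

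A signal under 40 was found at 5.71% of intergenic and 5.57% of promoter summits. All 20 intergenic summits with a signal under 40 were side summits: each had another, stronger listed summit 199 to 408 bp away. The weakest had 2.67, between COX7AL2 and CG31668, beside a summit of 68.3. The next had 4.34, between toe and eyg, and stood 387 bp from one of 130. Of all intergenic peaks, 262 (74.9%) were exactly 544 bp wide, against 45.9% of promoter peaks, and all 262 had the summit within 1 bp of the middle. The position of such a summit is therefore the centre of an entry of fixed width. In all, 44 intergenic summits (12.6%) belonged to an entry that overlapped a stronger one, against 17.1% of promoter summits, and 306 did not.

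In the replicates' own thresholded lists, 166 of the 350 intergenic peaks (47.4%, 42.3 to 52.7%) overlapped a peak of both, against 70.6% of promoter peaks, 37.2% of peaks inside genes and 64.6% of all peaks. The share was lower than at promoters (difference in percentage points -23.2, Newcombe 95% interval -28.5 to -17.8). A further 55 overlapped a peak of replicate 1 alone, 53 one of replicate 2 alone and 76 neither. Both ranked lists, which keep entries below the threshold, held an overlapping entry for 343. Since that list came from the alignments of the same 2 replicates, these overlaps are largely built in.

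The share in both lists was higher in the upper parts of the signal range, but not from the lowest part to the next. In 5 equal parts of the whole main list by signal, from low to high, it was 20.9%, 15.6%, 60.7%, 98.4% and 100% of intergenic peaks, against 38.9%, 28.4%, 72.0%, 98.3% and 100% of promoter peaks. Peaks inside genes had 7.02%, 13.7%, 65.1%, 98.4% and 100%. The intervals of intergenic and promoter peaks do not overlap in the lowest part (13.8 to 30.3% and 35.5 to 42.4%) or the next (up to 24.4% and from 25.4%). A side summit can count as shared through the peaks of its stronger neighbour. The vvl to Prat2 entry of 14.8 overlapped the ranked entries of 67.7 and 87.0 that its neighbour of 151 also overlapped. Side summits made up 17.1% of promoter and 12.6% of intergenic summits, and their part in the shares by signal was not tested. In the top 2 parts, which hold 61 and 19 intergenic peaks, nearly all peaks of both classes are in both lists. By position, 40 of 60 were in both lists by non-coding gene starts, 47 of 73 by 3′ ends, 23 of 48 at over 500 and up to 1000 bp, 35 of 97 at over 1000 and up to 5000 bp and 21 of 72 beyond that. Side summits made up 21.7% of those by non-coding gene starts and 9.72 to 12.3% of the other tiers. Their part in these counts was not tested.

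Across the 166 shared peaks the log2 signals of the replicates had a Pearson correlation of 0.78 and a Spearman correlation of 0.76, with a median log2 difference of replicate 1 minus replicate 2 of -0.07 (SD 0.62). These are descriptions across peaks of the same 2 libraries. The 3 peaks with over 4 times the signal in replicate 1 were side summits of strong ones, between myo and ey, between inc and Mur2B and between Rcd2 and knrl, where the overlapping entry of replicate 1 was that of the strong neighbour. Without the side summits, 140 shared peaks had a correlation of 0.90 and an SD of 0.41, and 45.8% of 306 peaks were in both lists.

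**Figure D3:**
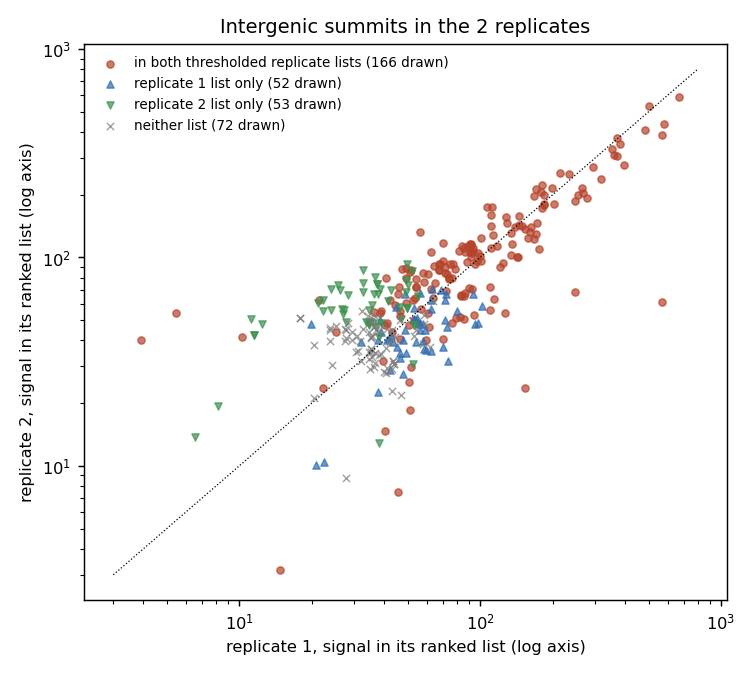
Signal of the overlapping entry in the ranked list of replicate 1 (x, log axis) and of replicate 2 (y, log axis) for the 343 intergenic summits with an entry in both, marked by which thresholded replicate lists hold a peak there. Peaks in both thresholded lists run along the dotted line of equal signal up to 667 and 587, and of the 8 points over 4 times apart between the replicates 7 are side summits.

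The strongest intergenic peaks without a thresholded partner in replicate 2 lay between bip1 and Sarm (signal 215, with 95.7 in replicate 1, no overlapping entry of any kind in replicate 2, and a stronger overlapping neighbour of 236 that is in both lists) and between Nipped-B and conu (168, with 99.7 in replicate 1 and none in replicate 2). The next lay between COX7AL2 and CG31668, with a signal of 159, 93.6 in replicate 1 and 66.5 in the ranked list of replicate 2. Those without one in replicate 1 lay between phu and RhoL (130, with 93.0 in replicate 2 and 49.9 in the ranked list of replicate 1), between toe and eyg (130, 73.7 and 50.1) and between dsx and CD98hc (128, 78.2 and 49.3). Of those in neither, the strongest were between TotZ and Ktl (149), between Wnt4 and wg (112) and between blw and CycB (103). At TotZ the ranked lists had 63.5 in replicate 1 and 62.0 in replicate 2.

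The strongest intergenic summit lay 264 bp past the 3′ end of CG5254 and 611 bp before CG5273, at X 758983, with a signal of 1258 (667 in replicate 1 and 587 in replicate 2). It was followed by a summit 212 bp past the 3′ end of Ptp4E, which encodes a receptor tyrosine phosphatase, with 1033 (501 and 531). The third lay 3016 bp from the start of stnB, a gene for a synaptic vesicle recycling protein, and 8 bp from the start of asRNA:CR45009, with 1026 (581 and 439). The fourth lay between the starts of myo, which encodes a TGF-beta ligand, and ey, the Pax6 gene of the eye, 754 bp from ey and 880 bp from myo, with 948 (571 and 387). The fifth lay 92 bp past the 3′ end of inc, a gene for an adaptor of the Cul3 ubiquitin ligase, with 895 (483 and 407). The sixth lay 780 bp past RpLP0, a ribosomal protein gene, with 737 (370 and 372). In these 6 the replicates differ by less than 1.5 times, and 4 of the 6 are on X, against 50 of all 350 intergenic summits.

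The next 9 ran from 729 down to 477. They lay between CG7881 and BubR1, a spindle checkpoint gene (729), between CG9593 and alpha-Man-IIb, a mannosidase gene (675), and between Rcd2 and knrl, a nuclear receptor gene (674). Others lay between p130CAS, an adaptor of integrin signalling, and CG7049 (671), between CG43402 and CG31928 (665), beside tRNA:Leu-AAG-1-3 (572) and between CG13970 and CG10651 (554). The last were beside tRNA:Lys-CTT-1-5 between EcR, the ecdysone receptor gene, and Cyp6w1 (485), and between nvd, which encodes an enzyme of ecdysteroid synthesis, and mRpS5 (477). The summit of 477 lay 134443 bp from nvd but 1138 bp from the start of mRpS5. All 15 had a peak in both replicates' lists. The gene named on a side is the nearest by position, and no target was assigned.

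The 9 bases CGTGACACG stood in 10 of 350 intergenic windows (2.86%, 1.56 to 5.18%) and in 0 of the windows of the same size placed 500 bp away on a randomly chosen side, where a count of 0 allows up to 0.857% (a limit of 3 counts). They stood in 17 of 4582 promoter windows (0.371%) and in 9 of 788 windows inside genes (1.14%), with 0 flank windows in each class. The arms hold 394 copies on both strands, 19.8% of them on X. Of the 10 intergenic summits, 5 are on X and 6 are in both replicates' lists, and their signals are 1258, 1033, 895, 737 and 298 followed by 112, 89.2, 88.6, 80.1 and 74.2. The median signal of the promoter summits with these letters was 546, against 156 over all promoter summits. The letters were noticed in the windows of the strongest summits after the values had been seen, so the count, its interval, the flank and the shares by class are descriptions of windows that chose the letters.

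The DREF site TATCGATA stood in 29 intergenic summit windows (8.29%, 5.83 to 11.6%) and in 1 flank window (0.286%). The windows with it only at the summit outnumbered those with it only in the flank by 29.0 times (exact 95% interval 4.81 to 1184). That ratio rests on 1 flank window: the flank share was 0.857% on the other side, and in the list of replicate 2 alone, without replicate 1, the shares were 8.88% at the summit and 1.16% in the flank. It stood in 14.7% of promoter windows, in 3.81% of windows inside genes and in 12.8% of all summit windows, so its share at intergenic summits was below that of all summits. Its intergenic sites were held by 10 of 73 windows by 3′ ends and 8 of 48 windows at over 500 and up to 1000 bp from a TSS, but by 4 of 60 by non-coding gene starts, 3 of 97 at over 1000 and up to 5000 bp and 4 of 72 beyond. With the summits in transposable elements left out, the shares were 7.58% at the summit and 0.303% in the flank. The INE-1 window between CG8565 and ArgRS printed above also holds the site. Intergenic summits with the site had a median signal of 210, and those without it 101.3. Both replicates' lists held 23 of 29 peaks with it (79.3%) and 143 of 321 without it (44.5%). Counted over 1 kb around the summits, 15 copies lay in the 50 bp on each side of the summit, and no other bin of 50 bp held more than 4.

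CGATA, the core of BEAF-32 sites, which TATCGATA contains, stood in 102 intergenic windows (29.1%, 24.6 to 34.1%) and in 41 flank windows (11.7%). The ratio of windows with it only at the summit to windows with it only in the flank was 3.35 (exact 95% interval 2.14 to 5.40). Promoter summits had it in 47.3% of windows and summits inside genes in 22.8%. By 3′ ends of protein-coding genes it stood in 37 of 73 windows (50.7%), close to the promoter share, and beyond 5000 bp in 13 of 72 (18.1%).

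The letters searched for Hox proteins and their cofactors showed no steady excess at intergenic summits. The homeodomain core TAATTA stood in 19 summit windows (5.43%) and 18 flank windows (5.14%), the TALE site TGACAG in 15 (4.29%) and 18 (5.14%). The Exd and Hox forms TGATTAAT and TGATTTAT stood in 2 and 3 summit windows, against 2 and 5 flank windows. The order of summit and flank turned with the flank and the library: with the other side taken, TGACAG stood in 4.29% of summit and 3.14% of flank windows and TAATTA in 5.43% and 6.29%. In the list of replicate 1 alone TAATTA stood in 6.53% of summit and 3.67% of flank windows, while in that of replicate 2 alone TAATTA stood in 4.63% and 7.34% and TGACAG in 4.63% and 3.47%. In the other classes TGACAG was more frequent at the summit, with 4.04% against 2.53% at promoters (ratio 1.61, exact 95% interval 1.27 to 2.06) and 4.44% against 2.28% inside genes (1.94, 1.07 to 3.65). TAATTA stood in 6.42% of promoter windows at the summit and 5.11% in the flank, and in 4.19% and 9.26% inside genes. Whether the intergenic ratios differ from these was not tested, and short letters of this kind miss sites of other forms.

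**Figure D4:**
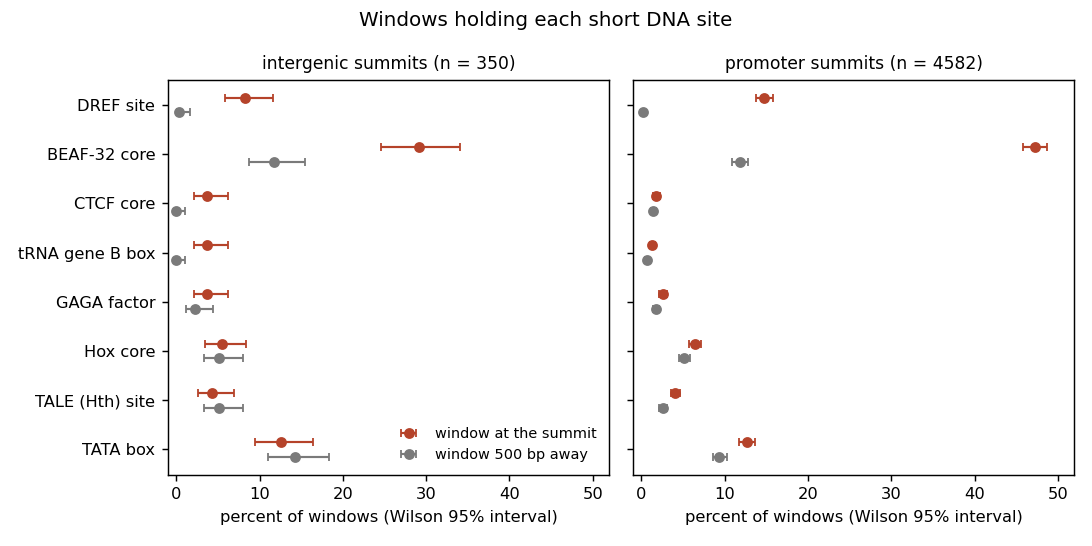
Percent of windows of 50 bp on each side that hold each short site, with Wilson 95% intervals, at the summit (red) and 500 bp away (grey), for intergenic summits (left) and promoter summits (right). The DREF site and the BEAF-32 core are more frequent at the summit in both classes, at 8.29% and 29.1% of intergenic windows, and the Hox core (5.43% and 5.14%) and the TALE site (4.29% and 5.14%) have overlapping intervals at intergenic summits and in their flanks.

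Of the other sites, AGNTGGCG, a core of CTCF sites, stood in 13 intergenic windows (3.71%) and 0 flank windows, but in 2.29% of flank windows when the other side was taken. The site GAGAGAG of GAGA factor stood in 13 summit windows and 8 flank windows, and in 6.98% of windows inside genes. GGTCACAC, the core of the M1BP site of promoters, stood in 6 summit windows and 1 flank window, against 4.52% of promoter windows. The TATA box letters TATAAA stood in 44 summit windows and 50 flank windows. In all, 23 sites were searched on both strands.

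Of the 60 intergenic summits by non-coding gene starts, 26 were nearest to a tRNA gene and 26 to a gene of class ncRNA, 4 to a pseudogene, 2 to a snoRNA gene and 2 to a snRNA gene. The tRNA-side summits had a median signal of 153 (51.6 to 572), 23 of 26 lay within 150 bp of the tRNA gene's start and 19 were in both replicates' lists. Their distance to the start had a median of 88.5 bp and was counted without its side. Since the rule leaves out gene bodies, summits just past a tRNA gene's end can be among them. In the pair of windows shown above, the B box lies before the summit on the printed strand. Examples of tRNA-side summits are those by tRNA:Leu-AAG-1-3 (signal 572, 293 in replicate 1 and 272 in replicate 2), tRNA:Lys-CTT-1-5 (485, 233 and 251) and tRNA:Pro-TGG-1-1 (415, 199 and 215). The replicates lie close together in each. The B box core GGTTCGA stood in 13 intergenic windows (3.71%) and 0 flank windows, 8 of them beside a tRNA gene, and in 6.98% of windows inside genes. Since summits inside a tRNA gene count as inside a gene, intergenic summits are only part of this group: of 290 tRNA genes on the arms, 204 had a summit of any class within 500 bp, and 40 an intergenic one. A summit near several tRNA genes counts for each of them, and the like share of other gene classes is not given. The snoRNA-side summits lay by snoRNA:Psi18S-176 (467) and snoRNA:Psi28S-3342 (402). Some tRNA genes exist in near-identical copies, and how reads that fit several copies were placed is stated in no label or header.

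Transposable elements held 20 intergenic summits (5.71%, 3.73 to 8.66%), against 0.284% of promoter summits, 3.05% of summits inside genes and 0.997% of all summits. The share was 5.43 percentage points above that at promoters (Newcombe 95% interval 3.44 to 8.38) and 2.67 above that inside genes (0.213 to 5.78). Of the 20, 19 lay in INE-1, a short, old and abundant element without genes of its own, and 1 in mariner2. INE-1 makes up 0.569% of the open intergenic bases and held 5.43% of the intergenic summits, while all annotated transposable elements make up 10.5% of those bases. Only 53 of the 2235 INE-1 copies on the arms held a summit of any class. The INE-1 summits had a median signal of 111 (49.0 to 379), and 11 of 19 were in both replicates' lists.

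The strongest INE-1 summits lay between CG8565 and ArgRS, the arginyl-tRNA synthetase gene (signal 379, with 170 in replicate 1 and 212 in replicate 2), and between bin3 and Pld (353, 181 and 172). They were followed by the one between gzl and Dmtn (304, 113 and 174) and the one between CG43774 and ed, a gene for a cell adhesion protein (286, 149 and 141). The letters CTATCAGA stood in 20 intergenic windows (5.71%) and 1 flank window, and in 0.393% of promoter windows and 4.19% of windows inside genes. Of the INE-1 summits, 11 held them, and 9 intergenic summits held them outside every annotated element, such as the one between CG17493 and Slmap (363, 184 and 181). When the windows were aligned on these letters, 15 covered the 32 positions compared. Besides the 8 aligned letters, which match by construction, at least 80% of the windows held the same base at 15 of 24 positions. The letters stood in 624 of the 2235 INE-1 copies and 3572 times on the arms, so most copies had no listed summit. They were picked from the 8-base sequences most in excess at intergenic summits, so the excess is a description. Reads from copies of a repeat can fit several places, and the part of this in the counts was not tested.

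Among the arms, chromosome 4 held 13 intergenic summits in 0.253 open Mb, or 51.3 per Mb, and these were 22.8% of its 57 summits. The other arms with a summit had from 7.67 per Mb on 3L to 11.5 per Mb on 2R, and no summit lay on the Y. Among those 13, 6 lay in transposable elements, 5 of them in INE-1, and 8 were in both replicates' lists. The 13 fell in 9 gaps between genes. Besides the summit at ey they include one between ci, the transcription factor of Hedgehog signalling, and RpS3A (signal 292, with 167 in replicate 1 and 123 in replicate 2) and one between fuss and toy, the second Pax6 gene (279, 107 and 175). Chromosome 4 is small and rich in repeats, and the part of this in its density was not tested.

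Another listed summit within 5 kb was less frequent at intergenic summits, with 211 (60.3%, 55.1 to 65.3%). The share was 73.2% at promoter summits, 68.1% at summits inside genes and 71.7% at all. These counts include side summits. With only the strongest of overlapping entries the intergenic share was 47.4%, and the other classes were not counted in that way. The intergenic summits fell in 271 gaps between protein-coding genes, of which 210 held 1, 51 held 2 and 10 held 3 to 5. The densest 100 kb was at the Polycomb group genes Psc and Su(z)2 on 2R, where 13 intergenic summits spanned 86.2 kb from 12955929 to 13042102, against 7 in the next densest place, between noc and osp on 2L. Psc encodes a subunit of Polycomb repressive complex 1, and Su(z)2 a related protein. These 13 signals ran from 19.7 to 156 with a median of 83.5, only 3 were in both replicates' lists, and 2 were side summits, so the cluster is one of many weak entries. The same stretch held 3 promoter summits and 1 summit inside a gene. Between lola and psq, genes of BTB domain transcription factors, 5 intergenic summits lay within 5.34 kb, with signals of 79.3, 67.4, 61.7, 112 and 200.6 in order along 2R.

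Near the Hox genes, 4 intergenic summits lay within 100 kb of 1 or more of them. In the 20691 bp between the 3′ ends of Dfd and Scr, the first lay at 3R 6816385 (peak 6816113 to 6816656), 6735 bp from Scr and 6 bp outside the start of lncRNA:CR42651, with a signal of 185 (95.3 in replicate 1 and 92.8 in replicate 2). The other lay at 3R 6819136, 3984 bp from Scr, with a signal of 60.9. It had 37.6 in replicate 1 and 40.2 in the ranked list of replicate 2, and ranked 316 of the 350. The first had like values in both replicates, and the other passed the threshold in replicate 1 alone. Summits inside lncRNA:CR42651, the transcript that spans mir-10, added 3 more in the same gap, with signals of 135, 64.0 and 69.8. The third intergenic summit lay 38296 bp from Antp, towards Sodh1, at 3R 7037524, with 144 (51.5 and 87.3), and the fourth 92919 bp from Antp between alphaTub84B and e(y)2b, with 209 (124 and 93.9). None of the 4 windows held any of the searched Hox, Exd or TALE letters.

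**Figure D5:**
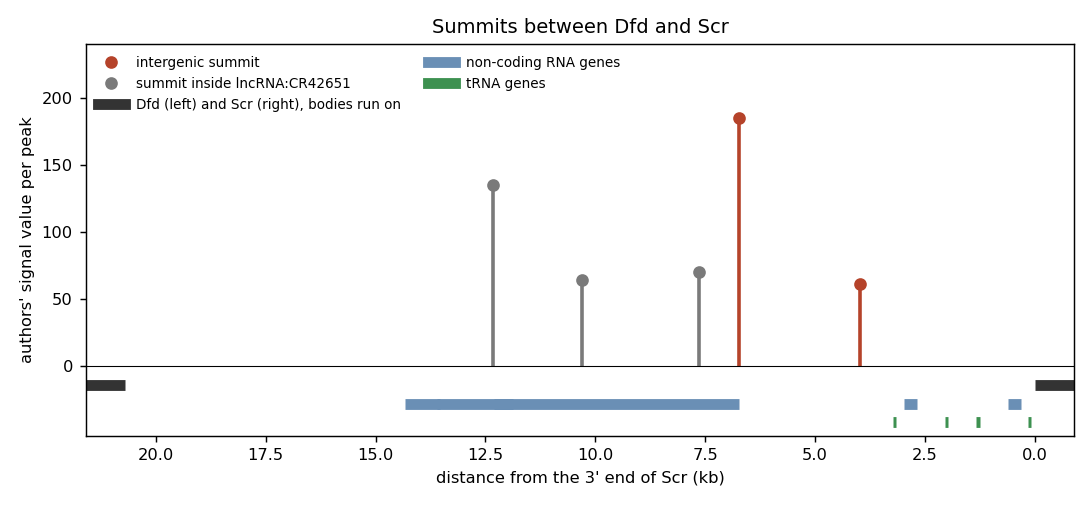
Signal of each summit (stems) between Dfd and Scr against the distance from the 3′ end of Scr in kb, with intergenic summits in red, summits inside lncRNA:CR42651 in grey, and the annotated genes drawn as bars under the axis. The highest stem, 185, stands at the outer edge of lncRNA:CR42651, 6735 bp from Scr, and the other intergenic one reaches 60.9.

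Of all 13968 protein-coding genes, 522 (3.74%) were the nearest gene on one side of an intergenic summit. A gene with long gaps beside it is more likely to be so: the share was 1.56% of genes with under 5000 bp of gap in all, 9.11% at 5000 to 20000 bp, 15.2% at 20000 to 50000 bp and 20.1% above that. Developmental genes tend to have long gaps, and the counts that follow are to be read against these shares. Of 21 eye and appendage genes, 12 stood next to an intergenic summit, 10 of them among the 14 with gaps of 20000 bp or more. The leading ones were ey (948), hth (357, with 184 in replicate 1 and 178 in replicate 2, 203 bp from CG6465 and 35789 bp from hth) and toy (279). The hth summit shows that the gene on the near side can be another one.

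Of the 8 Hox genes 3 stood next to an intergenic summit, and of 6 genes of cofactors and partners 2, hth and tsh (107, with 70.8 in replicate 2 and 38.5 in the ranked list of replicate 1). The tsh summit, in a copy of INE-1 and holding the letters CTATCAGA, lay 52426 bp from tsh and 7229 bp from CG11629. Of 12 salivary gland genes 4 did, eyg and toe sharing a summit of 130, fkh at 89.5 (48.5 in replicate 1 and 44.9 in the ranked list of replicate 2) and hkb at 66.0 (35.0 and 29.1 in the ranked lists). None of these 4 had a thresholded peak in both replicates. The shared summit lay 27925 bp from eyg and 1944 bp from toe. The fkh summit lay 33682 bp from fkh but 2477 bp from mIF2. The hkb summit, which held CTATCAGA outside any annotated element, lay 10789 bp from hkb but 2448 bp from CG1090. Of 13 gap and maternal patterning genes 5 did, led by knrl (674, but 56194 bp away and 530 bp from Rcd2), ems (188) and btd (168). Of 11 pair-rule genes 2 did, hry (383, 203 in replicate 1 and 180 in replicate 2) and eve (188, 92.4 and 105). The first summit lay 39512 bp from hry but 184 bp from SrpRbeta, and the second 6482 bp from eve but 57 bp from CG12134. Of 21 Wingless and Hedgehog pathway genes 7 did, led by ci (292), lgs (121) and the summit of 112 between Wnt4 and wg. Among genes with gaps of 20000 bp or more, 3 of 4 Hox genes did and 2 of 4 of cofactors and partners. So did 3 of 4 salivary gland genes and 4 of 8 gap and maternal patterning genes. The same count was 1 of 8 for pair-rule genes and 4 of 7 for Wingless and Hedgehog pathway genes.

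Of 20 mesoderm and muscle regulators 7 did, led by zfh1 (238, 142 in replicate 1 and 100.6 in replicate 2), H15 (209, 90.8 and 106) and eve. Of 18 listed Polycomb and trithorax group genes 3 did, Psc at 98.6 and ph-p and ph-d sharing 73.5. Su(z)2 was not in this list, and stood beside 5 intergenic summits with signals of 156, 120, 116, 92.1 and 63.9. Of 14 tracheal, gut and blood genes 3 did, vvl at 151 and srp and GATAe sharing 149, which lies 121 bp past the 3′ end of srp. The vvl summit lay 109266 bp from vvl but 7792 bp from Prat2. Of 23 proneural, neuroblast and neuronal genes 2 did (ems, and D at 86.9), of 19 EGFR, FGF and Notch pathway genes 2 (vn at 81.9 and Egfr at 70.5), and of 15 Dpp pathway genes 1, dpp itself (154, 71.9 and 68.8, 1986 bp past its 3′ end). None of the 10 germ-line genes and none of the 14 genes of chromatin and insulator factors did. Among genes with gaps of 20000 bp or more, 4 of 9 mesoderm and muscle regulators did, and 1 of 1 Polycomb and trithorax group gene. So did 1 of 5 tracheal, gut and blood genes and 2 of 5 proneural, neuroblast and neuronal genes. The same count was 1 of 5 for EGFR, FGF and Notch pathway genes and 1 of 2 for Dpp pathway genes. The median gap beside the genes was 30890 bp for the eye and appendage list, 720 bp for the germ-line list and 396 bp for the insulator factor list, against 711 bp for all protein-coding genes.

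The 5 summits farthest from any protein-coding TSS had signals from 77.9 to 148, against a median of 106 over all intergenic summits. The farthest, between Pld and jing, lay 65321 bp from a TSS of jing with a signal of 143, 71.2 in replicate 1 and 62.7 in the ranked list of replicate 2. The next, between Or67d and CG12362, lay 48952 bp away with 79.8. The third, between Ste:CG33236 and CG12479, lay 41884 bp away but 90 bp from tRNA:Arg-TCG-1-1, with 148 (62.3 in replicate 1 and 79.5 in replicate 2). The summit between caup and mirr, genes of the Iroquois complex, lay 40281 bp from mirr but 268 bp from lncRNA:CR43431, with 77.9, and the one between NijA and CG43245 lay 34572 bp away with 86.9. Of these 5, 1 was in both replicates' thresholded lists.

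At the limit of 500 bp, the summits just inside the rule were those by CheB93a at 501 bp from a TSS (signal 205), CG43066 at 506 bp (208), Sox21b at 510 bp (86.9) and CG12728 at 523 bp (291). Just outside it were those by CG31493 at 495 bp (729), mirr at 493 bp (119), CG2201 at 492 bp (179) and Sema1a at 491 bp (282). Outside genes, 34 summits lay at over 500 and up to 700 bp from a TSS with a median signal of 203, and 78 lay at over 300 and up to 500 bp from one with a median of 130, so the values show no step down at the limit.

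The windows at intergenic summits had a median GC content of 40.6% (interquartile range 33.7 to 47.3%), and their flanks 38.6%. Promoter summit windows had 41.6% and their flanks 46.5%. Summits inside genes had 46.5%.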

How the data were processed

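The data were peak lists on dm6, per the submitters' file notes: a thresholded and a ranked list for each of the 2 replicates, and thresholded lists made from both. Chromatin was sheared to 200 to 800 bp, per the labels. The authors deposited a signal per peak, whose scale relative to depth or control is not stated, and a score, which was at least 830 in the main list. No label or header names the aligner, peak caller or settings, and depth is unknown. Signal tracks and control libraries were not used here.

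Of the 2 lists thresholded over both replicates, the one without the conservative setting was used, on the arms, with 1 entry per summit. Genes came from Ensembl release 115 (BDGP6.54) and sequence from release 6 of the genome, whose arm lengths fit the coordinates, counted from 1. Overlap means at least 1 bp. Both strands were searched for sites in 50 bp on each side of the summit and in a window of the same size 500 bp away. Python 3.11.15, pandas 2.3.3, numpy 2.4.6, scipy 1.17.1 and matplotlib 3.10.9 were used, and the counting was tested on simulated data. With 1 group there is no comparison between conditions and no test: shares have Wilson, differences Newcombe and ratios exact 95% intervals, and these cover counting error only. Named are the 15 strongest members, the 5 farthest from a TSS, those within 100 kb of Hox genes, up to 3 genes per list, the strongest absent from a replicate's list and those at the 500 bp limit. The crowded stretches, the chromosome 4, tRNA and INE-1 examples, the side summits and the 9 bases were chosen after the values were seen. The members, sites and gene lists were chosen with earlier results of these data known. Of the gene lists, 3 salivary gland symbols and a few of other lists had no match in the annotation and are not counted. Alternatives to the distance, gene bodies, list, window and flank were tried.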

Additional observations from a re-analysis of the deposited data

How the results depend on the processing

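The lower signal of intergenic summits than of promoter summits kept its direction under each alternative that measured it. The excess of TATCGATA over the flank kept its direction under the alternatives of window, flank, single replicate, overlapping entries and transposable elements. It was not counted with the 1000 bp limit, other gene starts or bodies, the conservative list or the summits above the median signal. Of 86 alternative values of the main results, 64 stayed within the interval of the reported value or, for counts, within 1.5 times. A limit of 1000 bp from a TSS gave 4.72% of summits and a median distance of 3699 bp. Counting starts of every gene class gave 5.07%, and protein-coding bodies alone gave 7.78% with a median GC of 42.6%. With only the strongest of overlapping entries the log2 difference from promoters was -0.84 and 47.4% had another summit within 5 kb. Above the median signal there were 125 summits (4.37%) with a median signal of 209, a log2 difference of -0.84, 91.2% in both replicates' lists, 28.8% with another summit within 5 kb and a median GC of 37.6%. Ranked lists gave 98.0% in both. The lists of single replicates gave 5.49 to 5.92% of summits, median signals of 69.8 to 69.9, log2 differences of -0.71 to -0.63, 51.4 to 56.0% with another summit within 5 kb, a GC of 37.6 to 39.6%, and 8.88 to 11.8% of windows with TATCGATA. The causes were not tested. No paired analysis was possible because the samples form 1 group. Depth is unknown, so no detection limit is given.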
